A study of Mus musculus with 33 samples.

Results

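The genes Qk, Elavl1, Msi2, Rbms1, Rbms2 and Rbms3 encode proteins that bind the 3' untranslated region (3' UTR) of mRNAs. All 6 were among the 12348 genes of the mRNA table, and all 6 passed the filter on low values (at least 1 scaled CPM in at least 3 libraries). The poly(A) site table listed 5 of them among its 4324 genes. Rbms3 was not in that table. The genes were picked by name with earlier results of the same data known, above all a low level of Rbms3 in KO cells at day 4. Their levels against day 0 and their poly(A) site use are therefore given as a description, with no test.

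The cells were cultured mouse esophageal basal cells, the dividing cells at the base of the esophageal lining, with both Nudt21 alleles floxed (Nudt21 fl/fl) and an inducible Cre recombinase at the Rosa26 locus (R26CreER). Hypomorph cells received 0.05 µM 4-hydroxytamoxifen (4OHT), which switches on the Cre, together with 50 ng/ml doxycycline for 4 or 6 days. KO cells received 0.05 µM 4OHT for 2, 4 or 6 days, and day 0 cells received ethanol for 4 days and kept the floxed allele. All KO and hypomorph samples and no day 0 sample had 4OHT, so the drug and the loss of Nudt21 cannot be told apart. No ethanol group matched days 2 or 6, so days of treatment cannot be told apart from that loss either. All cells grew in SAGM medium with Y-27632, CHIR99021, A83-01 and DMH-1, small-molecule kinase inhibitors. Every hypomorph sample and no other had doxycycline, so the hypomorph state and the drug cannot be told apart, and how doxycycline acts on Nudt21 is not given in the sources used here. Poly(A)-selected mRNA was sequenced in 18 libraries, 3 in each of 6 groups, and poly(A) sites were mapped (PAS-seq) in 9 samples, 3 each of hypomorph day 4, KO day 4 and control. The labels do not say whether replicates were grown apart, and the spread behind each p-value may be technical.

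Nudt21 encodes CFIm25, the subunit of cleavage factor Im that recognises sequence upstream of distal poly(A) sites, and its loss is known to move cleavage toward proximal sites and to shorten 3' UTRs. The 3' UTR carries the binding sites of proteins that set how stable an mRNA is and how well it is translated. ELAVL1 (HuR) binds AU-rich elements and is known as a stabiliser of short-lived mRNAs. QKI, the product of Qk, is a STAR-family protein with roles in splicing and mRNA stability, MSI2 is a Musashi-family protein known in stem and progenitor cells, and the RBMS proteins bind A- and U-rich single strands.

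The libraries held 16.3 to 91.4 M (mega) reads on the listed genes, and 8 of 18 were over 40 M, among them all 3 of KO day 2 and none of day 0. Values are scaled CPM, the authors' reads scaled by library size and by a further factor per library. Nudt21 averaged 5.01 scaled CPM in hypomorph day 4 cells and 2.77 in hypomorph day 6 cells. It averaged 12.9 at day 0 and then 3.02, 3.03 and 1.71 in KO cells of days 2, 4 and 6. All 8 basal cell markers were listed, and they summed to between 28024 and 33730 scaled CPM per library, but single markers moved. Krt15 averaged 838 and 564 scaled CPM in hypomorph cells of days 4 and 6, and 429 at day 0 with 251, 561 and 1307 in KO cells of days 2, 4 and 6. Sox2 averaged 33.4 at hypomorph day 6, 54.0 at KO day 6 and 62.9 at day 0. Of 8 fibroblast markers only Col3a1 was listed, at no more than 2.29. Of 6 leukocyte markers Ptprc and Laptm5 were listed and Cd52, Lyz2, C1qa and C1qb were not. Ptprc and Laptm5 summed to at most 2.08 scaled CPM in hypomorph libraries, 0.344 to 17.6 at KO day 4, 0.631 to 16.1 at KO day 6 and 0 to 13.5 at day 0. The part of these markers in the results was not tested. The liver gene Alb exceeded 100 scaled CPM in 0 of 6 hypomorph libraries, 2 of 3 each of KO day 4 and KO day 6, 1 of KO day 2 and 2 of day 0. Of 7 liver markers Alb, Apoa1, Apob, Ttr and Fgb were listed and Apoa2 and Serpina1a were not. The 5 summed to 14.2 to 49.7 scaled CPM in hypomorph libraries. They summed to 6.55 to 395 at KO day 2, 11.7 to 899 at KO day 4, 21.0 to 737 at KO day 6 and 8.67 to 605 at day 0. The part of Alb and the other liver markers in the results was not tested. Where leaving out the 7 libraries with Alb over 100 changed a call, the value without them is given. Leaving them out left 1 library each of day 0, KO day 4 and KO day 6. A call or count given without them rests on that 1 library in those groups.

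The 6 genes did not share 1 course. Qk was lower at each later day of KO, Elavl1 was lower at days 4 and 6 of KO, and Msi2 and Rbms3 were lowest at KO day 4. Rbms1 was within 114% of its day 0 level in KO cells, and Rbms2 was highest in each state at day 6. At day 6 all 6 genes were higher in hypomorph than in KO cells. In bulk RNA fewer cells of a type and less RNA per cell cannot be told apart.

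Per kilobase of the length deposited with each gene, levels at day 0 spanned a wide range. Rbms1 was the most abundant at 55.4 scaled CPM per kilobase, followed by Elavl1 at 22.6, Qk at 16.9 and Rbms2 at 16.3. Msi2 stood at 3.85 and Rbms3 at 0.922. Rbms3 rested on the fewest reads, 48 to 1434 per library, against 4706 to 31602 for Rbms1.

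All 6 are annotated as protein-coding genes, and their positions are given on GRCm38. Qk (chromosome 17, 10206471 to 10319361) was at 113, 112 and 104 scaled CPM in the hypomorph day 4 libraries and at 83.5, 92.6 and 96.5 in those of hypomorph day 6. Along the KO course it was at 158, 164 and 180.3 at day 0, at 139.8, 136 and 140.3 at day 2, at 93.3, 81.1 and 93.0 at day 4, and at 53.4, 61.1 and 59.8 at day 6. No 2 neighbouring days of the KO course overlapped, and each later day was lower. KO cells thus held 83.0% of the day 0 mean at day 2, 53.3% at day 4 and 34.8% at day 6. On the log2 scale the differences from day 0 were -0.27 for KO day 2, -0.90 for day 4 and -1.52 for day 6 of KO (SE 0.08 each, n = 3 per group). Hypomorph cells held 65.6% of the day 0 mean at day 4 and 54.4% at day 6. In the order of levels hypomorph day 6 and KO day 4 overlapped, and every other pair of neighbours was apart.

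Elavl1 (chromosome 8, 4284781 to 4325140) was at 115, 118 and 109 scaled CPM in hypomorph day 4 libraries and at 120.4, 115 and 121 in hypomorph day 6 libraries. Along the KO course it was at 146, 134 and 138 at day 0, at 136, 131 and 134 at day 2, at 111, 103 and 98.3 at day 4, and at 59.3, 68.2 and 69.0 at day 6. KO day 2 overlapped day 0, KO day 4 lay below both, and KO day 6 lay below every other group. The means were 96.1%, 74.9% and 47.0% of day 0 at KO days 2, 4 and 6. The log2 difference from day 0 was -0.06 ± 0.07 at KO day 2 (SE, n = 3 per group), and its sign turned to 0.02 without the libraries with Alb over 100. At KO day 6 it was -1.08 ± 0.07. Hypomorph cells stayed at 81.8% of day 0 at day 4 and 85.3% at day 6, and these 2 groups overlapped.

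Msi2 (chromosome 11, 88339382 to 88718306) was at 23.1, 24.2 and 25.1 scaled CPM in hypomorph day 4 libraries and at 46.5, 42.2 and 46.1 in hypomorph day 6 libraries. Along the KO course it was at 25.9, 26.2 and 32.0 at day 0, at 17.8, 20.8 and 17.8 at day 2, at 13.6, 12.8 and 14.2 at day 4, and at 19.9, 23.4 and 20.0 at day 6. The hypomorph day 6 libraries were the highest and the KO day 4 libraries the lowest, and neither overlapped any other group. Against day 0, hypomorph cells stood at 86.1% at day 4 and 160% at day 6, and KO cells at 67.1%, 48.4% and 75.4% at days 2, 4 and 6. The log2 differences from day 0 were 0.68 at hypomorph day 6 and -1.02 at KO day 4 (SE 0.11 each, n = 3 per group).

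Rbms1 (chromosome 2, 60750193 to 60963880), whose human counterpart was first described as a single-strand DNA-binding protein of the MYC gene, was at 295, 291 and 309 scaled CPM in hypomorph day 4 libraries and at 412, 404 and 404 in hypomorph day 6 libraries. Along the KO course it was at 258, 297 and 297 at day 0, at 319.9, 319.8 and 331 at day 2, at 329, 325 and 311 at day 4, and at 312, 294 and 312 at day 6. Hypomorph day 6 stood apart at 143% of the day 0 mean, and all other groups overlapped their neighbours in the order of levels, with means between 105% and 114% of day 0 in KO and hypomorph day 4 cells. The log2 difference from day 0 was 0.52 ± 0.07 at hypomorph day 6 and at most 0.19 ± 0.07 in KO cells (SE, n = 3 per group).

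Rbms2 (chromosome 10, 128129470 to 128180297) was at 119, 122 and 125 scaled CPM in hypomorph day 4 libraries and at 195, 192 and 191 in hypomorph day 6 libraries. Along the KO course it was at 90.0, 90.4 and 94.7 at day 0, at 93.9, 102 and 102 at day 2, at 104, 114 and 106 at day 4, and at 166, 171 and 158 at day 6. KO day 2 overlapped day 0, and every other pair of neighbours in the order of levels was apart. Both states were highest at day 6, at 210% of day 0 in hypomorph cells and 180% in KO cells. The log2 differences from day 0 were 1.07 at hypomorph day 6 and 0.84 at KO day 6 (SE 0.07 each, n = 3 per group).

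Rbms3 (chromosome 9, 116572746 to 117629913), the least abundant of the 6 genes per kilobase, was at 6.15, 6.07 and 5.50 scaled CPM in hypomorph day 4 libraries and at 17.7, 20.4 and 18.4 in hypomorph day 6 libraries. Along the KO course it was at 19.6, 20.2 and 9.82 at day 0, at 5.78, 5.48 and 5.11 at day 2, at 1.89, 3.52 and 2.75 at day 4, and at 5.29, 4.25 and 4.99 at day 6. Day 0 replicate 3 had less than the other day 0 libraries and still more than any KO or hypomorph day 4 library. Hypomorph day 6 overlapped day 0, at 114% of its mean, while KO cells stood at 33.0%, 16.5% and 29.3% at days 2, 4 and 6. The log2 difference from day 0 at KO day 4 was -2.37 ± 0.21 (SE, n = 3 per group), and -2.69 without day 0 replicate 3. At hypomorph day 6 it was 0.25 ± 0.21, and its sign turned to -0.08 without that library.

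**Figure D1:**
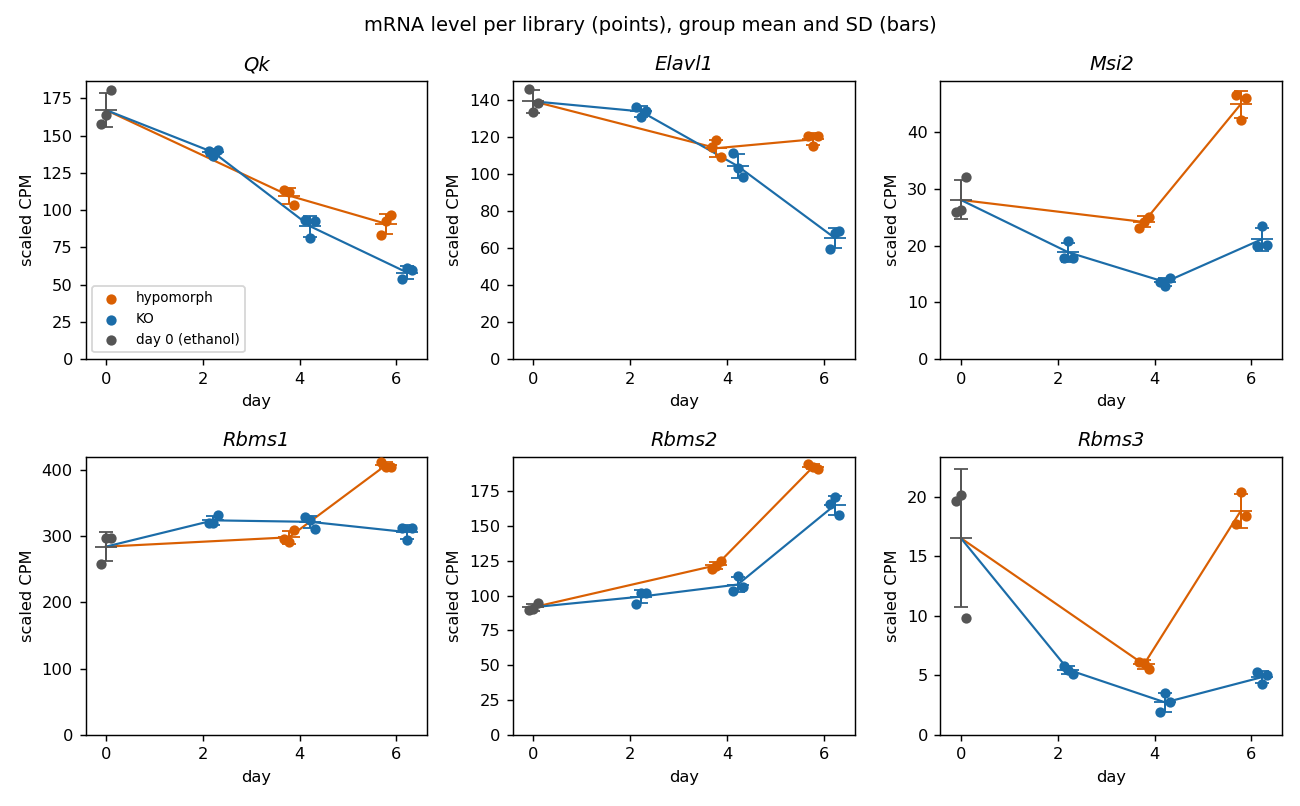
mRNA level in scaled CPM (linear vertical axes from 0, a range of its own per gene) against the day of treatment for the 6 genes; points are libraries, horizontal bars with whiskers are the mean and SD of 3 libraries, and lines join the means of hypomorph (orange) and KO (blue) groups to day 0 (grey). At KO day 6 Qk and Elavl1 were at 34.8% and 47.0% of day 0, and the hypomorph day 6 points lie above the KO day 6 points in every panel.

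The comparisons with day 0 share the same 3 day 0 libraries. By library, 1 gene was higher and 3 were lower than day 0 without overlap at KO day 2, where 25.2% and 15.0% of all tested genes were. At KO day 4 it was 2 higher and 4 lower (26.5% and 26.0% of all tested genes), and at KO day 6 it was 1 higher and 4 lower (33.7% and 38.3%). For the hypomorph it was 1 higher and 4 lower at day 4 (24.0% and 22.2%), and 3 higher and 2 lower at day 6 (34.3% and 31.3%). Groups of 3 that do not overlap were thus common in this table, and since these contrasts were used to choose the genes, nothing is read from the counts. The authors' deposited table gives close log2 values for the same contrasts, such as -1.52 for Qk and -1.09 for Elavl1 at KO day 6. For Rbms3 at KO day 4 the authors' deposited table has -2.60.

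The hypomorph and KO states were compared with each other at days 4 and 6. Each log2 difference between the states is the difference between their contrasts against day 0. Those contrasts were known when the genes were chosen. A low KO level known beforehand favours a higher hypomorph level, so the p-values are a description and do not stand apart from that choice. Nudt21 itself did not pass the test between the states, with a log2 difference of 0.64 at day 4 (limma adjusted p = 0.101) and 0.43 at day 6 (limma adjusted p = 0.187). At day 4, Msi2 and Qk were higher in hypomorph than in KO cells. These were 2 of the 5 genes tested, while 13.9% of all tested genes were higher and 10.7% lower. Msi2 averaged 24.2 ± 0.969 scaled CPM in hypomorph cells and 13.6 ± 0.701 in KO cells (SD, n = 3 each), a log2 difference of 0.81 ± 0.11 (SE, limma adjusted p = 3.11e-06). Qk averaged 110 ± 5.34 scaled CPM in hypomorph cells and 89.1 ± 6.94 in KO cells, a log2 difference of 0.30 ± 0.08 (limma adjusted p = 0.00676). Without KO day 4 replicate 2, the lowest of its group, the Qk difference was 0.23 and missed the threshold (limma adjusted p = 0.0551).

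Rbms2, Elavl1 and Rbms1 did not pass at day 4. Rbms2 had a log2 difference of 0.17 ± 0.07 (limma adjusted p = 0.0589) although its groups did not overlap, Elavl1 had 0.13 ± 0.07 (limma adjusted p = 0.215), and Rbms1 had -0.11 ± 0.07 (limma adjusted p = 0.236). Rbms2 lay close to the threshold and passed it in 5 of 30 alternatives. Rbms3 averaged 5.91 ± 0.355 scaled CPM in hypomorph cells and 2.72 ± 0.818 in KO cells (SD, n = 3 each). No test is given for it here, since its KO day 4 level was a reason to choose it.

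At day 6 all 6 genes were higher in hypomorph than in KO cells, each without overlap (as were 36.8% of all tested genes), while 37.7% of all tested genes were higher and 27.0% lower. Rbms3 averaged 18.8 ± 1.42 scaled CPM in hypomorph cells and 4.84 ± 0.533 in KO cells (SD, n = 3 each), a 3.62-fold difference on the log2(scaled CPM + 0.5) scale (log2 1.86 ± 0.21, limma adjusted p = 1.31e-08). Msi2 averaged 44.9 ± 2.36 in hypomorph cells and 21.1 ± 2.01 in KO cells, a 2.10-fold difference (limma adjusted p = 1.82e-09). Elavl1 averaged 119 ± 3.32 in hypomorph cells and 65.5 ± 5.40 in KO cells, a 1.81-fold difference (limma adjusted p = 8.35e-11). The 3 genes that KO cells held at the lowest share of day 0 were Rbms3, Qk and Elavl1, and Qk was 1.56-fold higher in hypomorph cells, at 90.9 ± 6.68 against 58.1 ± 4.09 scaled CPM in KO cells (limma adjusted p = 7.85e-08).

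Rbms1 and Rbms2 differed least between the states. Rbms1 averaged 407 ± 4.44 scaled CPM in hypomorph cells and 306 in KO cells, a log2 difference of 0.41 ± 0.07 (limma adjusted p = 3.88e-06). Rbms2 averaged 193 ± 1.71 in hypomorph cells and 165 ± 6.69 in KO cells, a log2 difference of 0.22 ± 0.07 (limma adjusted p = 0.00486). The median of all tested genes was 0.07 in this comparison and moved to -0.13 when every library was scaled to the same total, where 3292 genes were higher and 4847 lower instead of 4651 and 3337. Under that scaling the other 5 genes still passed and Rbms2, at 0.01, did not (limma adjusted p = 0.878). With each library centred on its median, which put the median of all tested genes at -0.04, Rbms2 was at 0.11 and did not pass (limma adjusted p = 0.153).

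Markers and libraries moved with day 6 too. Acta2, the only one of 6 muscle markers listed, was at 53.8 to 68.5 scaled CPM in hypomorph day 6 libraries and 49.2 to 56.1 in KO day 6 libraries, against 2.66 to 10.0 in all other groups. Myh11, Cnn1, Des, Tagln and Myod1 were not listed, and the part of Acta2 in the results was not tested. Leaving out the libraries with Alb over 100 left 1 KO library at each day, assumed to vary like the other groups. All 6 genes then remained higher in hypomorph cells at day 6 (log2 0.29 to 1.81), and Qk (0.43) and Msi2 (0.88) remained so at day 4.

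**Figure D2:**
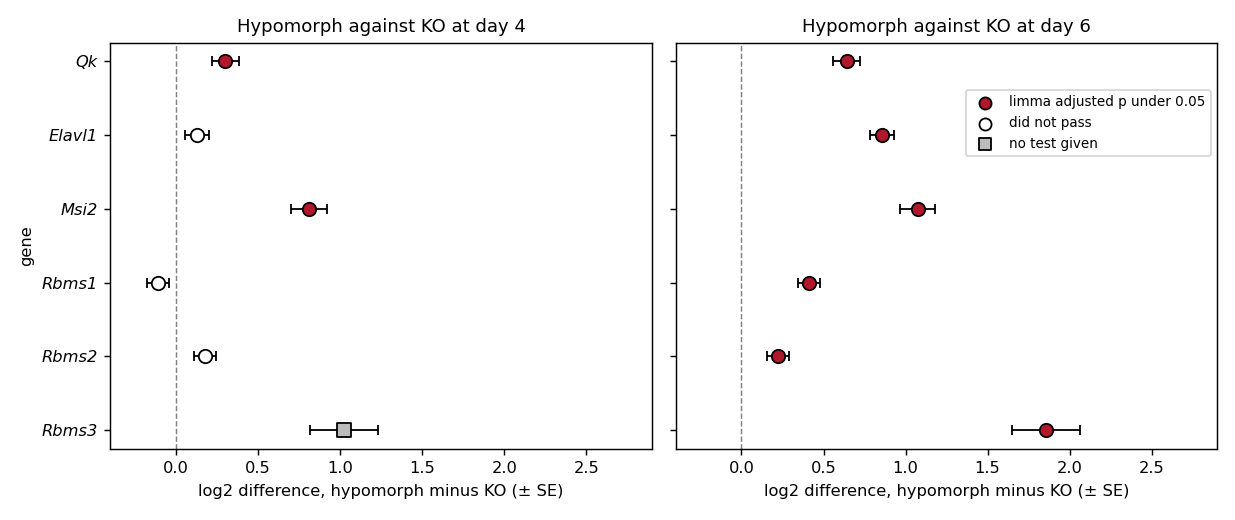
log2 difference, hypomorph minus KO, with its SE (horizontal axis) for each of the 6 genes (vertical axis) at day 4 (left) and day 6 (right); filled circles passed limma at an adjusted p under 0.05, the open circles did not, and the grey square marks Rbms3 at day 4, for which no test is given. At day 4 only Qk and Msi2 are filled, and at day 6 all 6 genes lie right of 0.

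The steps within each state compare libraries other than day 0. Each step is still the difference between contrasts against day 0 known when the genes were chosen, so its p-value is a description. Between KO day 2 and KO day 4, Qk fell by 0.64 on the log2 scale (limma adjusted p = 7.67e-07), Msi2 by 0.45 (limma adjusted p = 0.00202) and Elavl1 by 0.36 (limma adjusted p = 0.000477). These were 3 of the 5 genes tested, and 18.9% of all tested genes fell and 12.9% rose. Rbms1 (-0.01, limma adjusted p = 0.923) and Rbms2 (0.12, limma adjusted p = 0.181) did not pass. The sign of Rbms1 turned in 6 of 30 alternatives, and Rbms2 passed with libraries median-centred (0.17) or scaled to the same total (0.18). Genes higher and lower numbered 2067 and 1966 with median-centring and 2134 and 1905 with the same total, against 1587 and 2329 in the main fit. Msi2 kept its size without the libraries with Alb over 100 (-0.46) and missed the threshold there (limma adjusted p = 0.0512).

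Between KO day 4 and KO day 6 the 6 genes split. Elavl1 fell by a further 0.67 on the log2 scale (limma adjusted p = 1.02e-08) and Qk by a further 0.61 (limma adjusted p = 1.97e-07). Msi2 rose by 0.62 (limma adjusted p = 1.84e-05) and Rbms2 by 0.61 (limma adjusted p = 9.90e-09), and Rbms1 did not pass (-0.07, limma adjusted p = 0.358). That made 2 of 5 higher and 2 lower, where 26.6% of all tested genes rose and 33.1% fell. Rbms3 was at 4.25 to 5.29 scaled CPM at KO day 6, above all 3 libraries of KO day 4, with no test given. With median-centring 4192 genes were higher and 3499 lower, against 3280 and 4086.

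In hypomorph cells, day 6 against day 4, 4 genes rose and 1 fell, where 31.9% of all tested genes rose and 30.0% fell. Rbms3 rose by 1.59 on the log2 scale (limma adjusted p = 1.86e-07), a 3.01-fold difference. Msi2 rose by 0.88 (limma adjusted p = 6.09e-08), Rbms2 by 0.66 (limma adjusted p = 1.88e-09) and Rbms1 by 0.45 (limma adjusted p = 1.02e-06). Qk fell by 0.27 (limma adjusted p = 0.00431). Elavl1 had 0.06 and did not pass (limma adjusted p = 0.504), and its sign turned to -0.11 with libraries scaled to the same total. That scaling moved the median of all tested genes to -0.14 from 0.02, with 2972 higher and 4958 lower instead of 3938 and 3698.

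The change over these 2 days was compared between the states as an interaction, the day 6 minus day 4 difference in hypomorph cells less that in KO cells. The interaction too is made up of contrasts against day 0 known when the genes were chosen, and its p-values are a description. It passed for Elavl1 (0.73 ± 0.10, limma adjusted p = 2.72e-06), Rbms1 (0.52 ± 0.09, limma adjusted p = 4.86e-05) and Qk (0.34 ± 0.11, limma adjusted p = 0.0157), all positive. It did not pass for Msi2 (0.26 ± 0.15, limma adjusted p = 0.166) or Rbms2 (0.05 ± 0.10, limma adjusted p = 0.701), whose sign depended on the scaling. So 3 of 5 genes tested passed, all higher, while 27.4% of all tested genes passed with a positive and 18.2% with a negative interaction. Over this step Elavl1 fell in KO cells with no change detected in hypomorph cells, and Rbms1 rose in hypomorph cells with no change detected in KO cells. Msi2 and Rbms2 rose in both states. Scaled to the same total, 2138 genes had a positive and 3636 a negative interaction instead of 3385 and 2251, and the value for Qk was 0.12 and missed the threshold (limma adjusted p = 0.358). Without the libraries with Alb over 100 the interaction of Qk was 0.16 and missed it too (limma adjusted p = 0.495), while Elavl1 (0.64) and Rbms1 (0.50) passed.

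PAS-seq gave the use of a proximal and a distal poly(A) site per gene, as a ratio that the authors pooled over the 3 samples of a group. From it the proximal site's share of both was computed, in percent. The pooled ratios carry no replicate error, and the read depth behind them is not listed. Some ratios, such as 5.5 for Elavl1 and 0.128 for Qk in KO cells, could come from few reads. The shares of the 5 genes therefore need not be equally precise. Of the 4324 listed genes the authors called 49.4% shortened and 2.2% lengthened in KO cells at day 4. The median shift over all listed genes was 19.8 percentage points toward the proximal site.

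Elavl1 had 84.6% proximal use in KO cells at day 4 and 14.0% in control cells. Rbms1 had 91.7% in KO cells and 48.3% in control cells, and Msi2 had 100% in KO cells, with no distal use listed, and 58.1% in control cells. The authors called these 3 genes shortened. Rbms2 was mostly proximal in both, at 86.1% in KO cells and 78.3% in control cells, and was not called. Qk went the other way, with 11.4% proximal use in KO cells and 100% in control cells, and the authors called it lengthened. Its control ratio was listed as infinite, which means no distal use was listed. That held for 12 genes of the table, 10 of them called lengthened. A gene with no distal use in control cells can shift only toward the distal site.

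The authors' calls for the hypomorph at day 4 were the same for each of the 5 genes, where 21.8% of all listed genes were called shortened and 0.879% lengthened. The hypomorph ratios deposited for these genes were identical to the KO ratios, as they were in 3397 of 4324 genes, so they are not used, and which way each hypomorph call points is the authors' word alone. A call of shortened came with lower mRNA for some of the 5 genes and with higher mRNA for another. Elavl1, Msi2 and Rbms1, all called shortened, had log2 mRNA differences of -0.42, -1.02 and 0.18 at KO day 4 against day 0. Qk, called lengthened, had -0.90. Over the whole table the median log2 mRNA difference was -0.08 for 2135 shortened genes, -0.09 for 95 lengthened genes and 0.02 for 2094 genes not called. Reads were counted over whole genes, so a change in the length of the 3' UTR and a change in the number of transcripts cannot be told apart in the mRNA values.

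**Figure D3:**
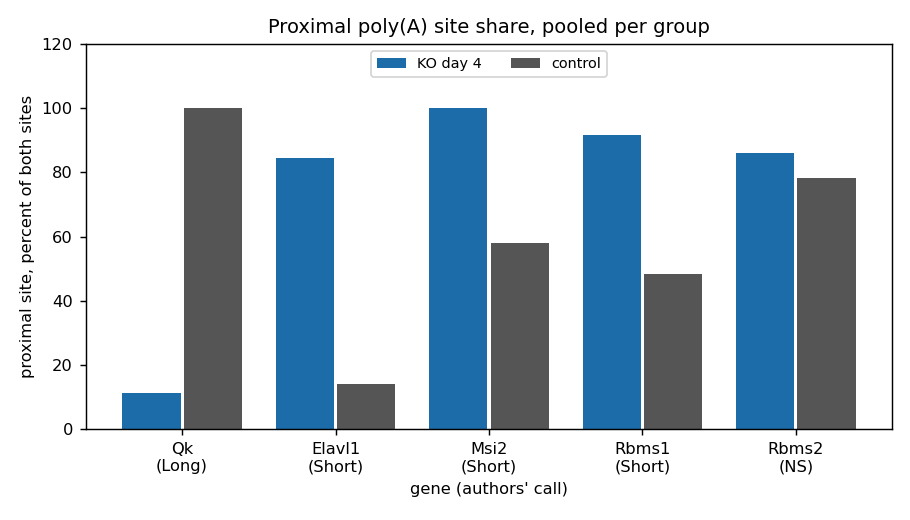
Share of the proximal poly(A) site in percent of both sites (vertical axis, from 0) for the 5 listed genes (horizontal axis, with the authors' call for KO in brackets, NS meaning not called), in KO day 4 (blue) and control (grey) cells; each bar is 1 ratio pooled over 3 samples and has no error. Elavl1, Msi2, Rbms1 and Rbms2 are higher in KO, with 7.85 points between the bars of Rbms2 and 70.6 between those of Elavl1, and Qk is lower in KO.

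Across the 18 libraries the levels of Qk and Elavl1 went together (Pearson r = 0.911), as did those of Rbms3 and Msi2 (r = 0.854). Qk and Rbms2 ran in opposite directions (r = -0.742). These values describe 6 groups of 3 libraries that share their treatments, and carry no test. Likeness was ranked among 10380 genes that reached a group mean of 5 scaled CPM, with provisional gene symbols and pseudogenes left out. The course of Qk was most like those of Srsf3 (r = 0.986), a splicing factor gene, Mbnl1 (r = 0.982), which encodes a muscleblind-family RNA-binding protein, and Rif1 (r = 0.978). Elavl1 was most like Nfx1 (0.987), Slc1a5 (0.983) and Gnpat (0.983), and Msi2 most like Wnt4 (0.973), Msrb3 (0.956) and Samd4 (0.956). Rbms1 was most like Rhod (0.930), Ryk (0.925) and Pttg1ip (0.925), Rbms2 most like Pld3 (0.986), Coro1b (0.986) and Mfge8 (0.983), and Rbms3 most like Rab10 (0.959), Dusp11 (0.953) and Abcd3 (0.950). Rab10, like Rbms3, was lowest at KO day 4, with 232 scaled CPM at hypomorph day 6, 103 at KO day 4 and 234 at day 0.

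The 6 genes were set beside a list of 59 other genes for 3' UTR-binding proteins, of which 51 were tested. This list too was chosen with earlier results of these data known, so its counts and shares are a description. Leaving out the libraries with Alb over 100 left 1 library each of day 0, KO day 4 and KO day 6. At KO day 4 against day 0, 13 of the 51 rose, 19 fell and 19 did not pass, so 62.7% changed, compared with 46.0% of all tested genes. The genes with the smallest p included Fubp1 (log2 -1.70), Hnrnpd (-1.09), which encodes the AU-rich element binder AUF1, and Mbnl1 (-0.91) among those that fell. Rc3h1 (0.78), which encodes the decay factor Roquin-1, and Cpeb2 (0.87) were among those that rose. Without the libraries with Alb over 100, 8 rose instead of 13. At KO day 2 it was 13 and 8 (41.2%, compared with 19.0%), with 7 rising without day 0 replicate 1, and 4 rising and 3 falling without the libraries with Alb over 100. At KO day 6, 18 rose, 24 fell and 9 did not pass (82.4%, compared with 71.1% of all tested genes). Hnrnpd fell to 34.9 scaled CPM, against 194 at day 0 (log2 -2.46), and Zfp36, which encodes the AU-rich element decay factor tristetraprolin, rose by 1.48. At hypomorph day 6 against day 0, 19 rose and 19 fell (74.5%, compared with 67.2%), with Zfp36 at 1.57 and Hnrnpd at -1.74. At hypomorph day 4 it was 9 and 17 (51.0%, compared with 31.7%), with 4 rising without day 0 replicate 1, and 5 rising and 10 falling without the libraries with Alb over 100.

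Between the states at day 6, 26 of the 51 list genes were higher in hypomorph cells, 11 were lower and 14 did not pass, so 72.5% differed, where 37.7% of all tested genes were higher and 27.0% lower. The list had a median log2 difference of 0.23, compared with 0.07 for all tested genes. With libraries scaled to the same total 17 were higher. Larp4 (log2 1.04), Mbnl2 (0.90) and Ptbp1 (0.77) were higher in hypomorph cells, and Rc3h2 (-0.74) and Rc3h1 (-0.58) were lower. At day 4, 11 were higher and 8 lower, so 37.3% differed, where 13.9% of all tested genes were higher and 10.7% lower. Fubp1 (0.69), Mbnl2 (0.64) and Tia1 (0.77) led the higher ones, and 7 were higher and 3 lower without the libraries with Alb over 100. In PAS-seq 35 list genes were present, and the authors called 24 shortened and 4 lengthened in KO cells. Of all 4324 genes in PAS-seq they called 49.4% shortened and 2.2% lengthened. The 35 genes had a median shift of 31.5 points toward the proximal site, compared with 19.8 for all genes in PAS-seq. The 4 called lengthened, as Qk was, were Zfp36l2, Fubp1, Larp4 and Caprin1.

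**Figure D4:**
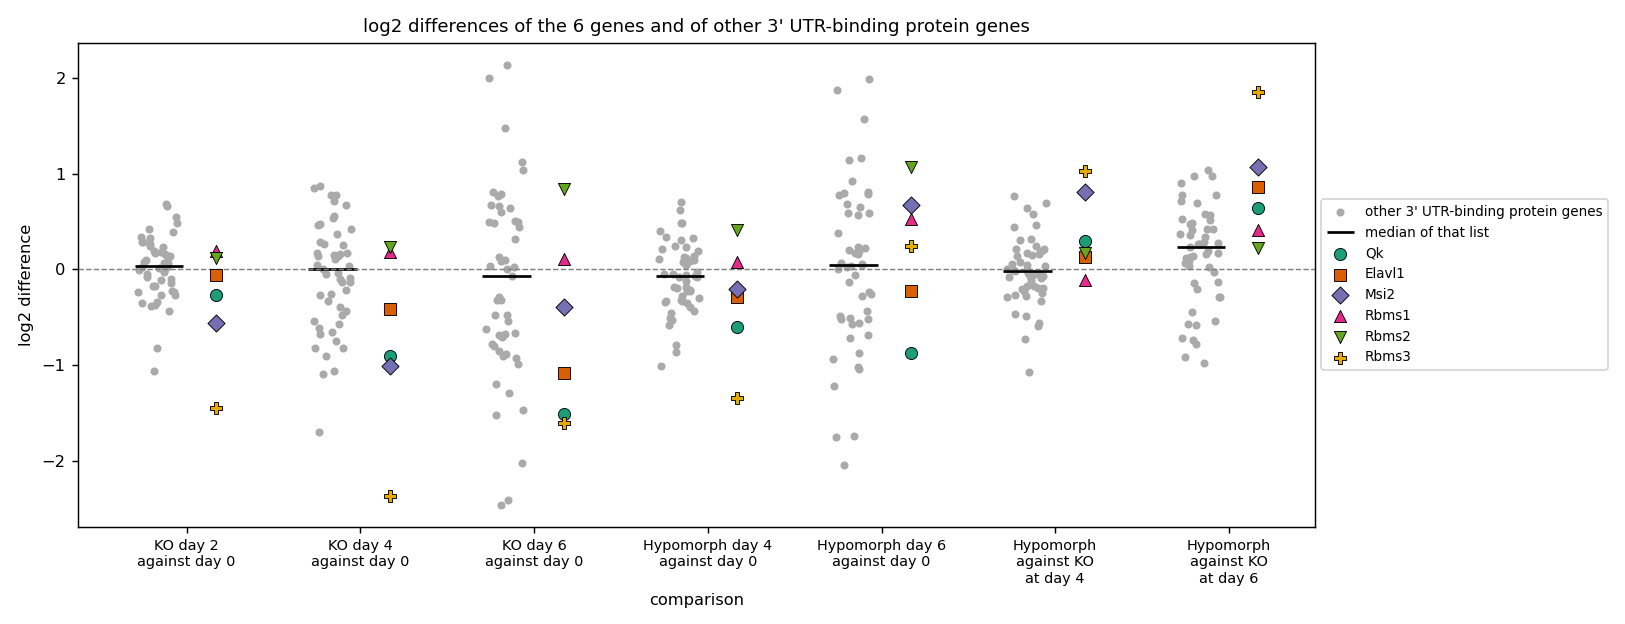
log2 difference (vertical axis) in 7 comparisons (horizontal axis) for the 6 genes (coloured symbols) and for 51 other genes of 3' UTR-binding proteins (grey dots, their median as a black bar); Cpeb1, listed at 0 in every day 0 library, has no dot in the comparisons with day 0. Rbms3 is the lowest of the 6 genes in every comparison of KO with day 0, and all 6 genes lie above 0 in hypomorph against KO at day 6.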

How the data were processed

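Messenger RNA was measured in 18 libraries and poly(A) sites in 9 samples; the 6 small RNA samples are not used here. Per the submitters' processing notes, STAR and featureCounts made the mRNA values on mm10 and the PAS-seq values on mm9; no versions were given. The deposited mRNA signal per gene and library is called scaled CPM, because its column totals ran from 910422 to 1170229 rather than to 1 fixed total. The authors' deposited log2 changes are quoted by name, and their deposited p-values are not used. The deposited PAS-seq ratio is proximal over distal, pooled over a group. It was turned into a percent share, with an infinite ratio taken as 100%. No per-sample column was left unmapped.

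The deposited signal came out as whole reads (tolerance 0.1 read) for 100% of values, with 16.3 to 91.4 M (mega) reads per library. No libraries were identical. The two-sided test was limma 3.58.1 (R 4.3.3), run on log2(scaled CPM + 0.5) with eBayes set to trend and robust; 1 fit held all 18 libraries, and each group had a term. Genes at 1 or more scaled CPM in at least 3 libraries were tested (12344 of 12348), with Benjamini-Hochberg adjustment over all of them and a threshold of 0.05. A log2 difference on this scale understates the change of low genes. On simulated data for hypomorph against KO at day 6 (12344 genes), 100% of changed genes were recovered at log2 sizes of 1 and 2, with 7 false calls. The simulation changed 200 genes, as many up as down, and scaled every library to the same total. It therefore does not cover the effect of scaling or of changes in most genes. Log2 differences under 1, as most of those of the 6 genes were, were not simulated. Libraries that deviate together were not simulated either. Alternatives were other pseudocounts (2 and 0.1), filters and scalings, a replicate block, a depth term, single libraries left out, the 7 libraries with Alb above 100 left out, and edgeR 4.0.16 and DESeq2 1.42.0 on the recovered reads. Positions and biotypes came from the RefSeq table of GRCm38.

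The 6 genes and the gene lists (other 3' UTR-binding proteins, deadenylation genes and cell type markers) were chosen with earlier results of these data known. Besides the 6 genes, Nudt21 and Alb, the rule named up to 3 called genes per list, comparison and direction with the smallest p and a mean of 5 scaled CPM or more in the higher group, the 3 genes most correlated with each of the 6 genes over 18 libraries, and the called list genes in PAS-seq. Not every gene the rule picks is reported here. Scaling every library to the same total of listed genes was added after the column totals were seen.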

Additional observations from a re-analysis of the deposited data

Results flagged for a closer look

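The step between day 4 and day 6 differed between hypomorph and KO cells for 3 of the 5 genes tested, by limma's interaction term. This term is made up of contrasts against day 0 known when the genes were chosen, so its p-values are a description. For Elavl1 the step was 0.06 on the log2 scale in hypomorph cells and -0.67 in KO cells, a difference of 0.73 (limma adjusted p = 2.72e-06). For Rbms1 it was 0.45 in hypomorph cells and -0.07 in KO cells, a difference of 0.52 (limma adjusted p = 4.86e-05). For Qk it was -0.27 in hypomorph cells and -0.61 in KO cells, a difference of 0.34 (limma adjusted p = 0.0157). The hypomorph libraries had Alb below 100 scaled CPM throughout, while 2 of 3 KO libraries at each of these days exceeded it. Without those libraries the value for Qk was 0.16 and missed the threshold (limma adjusted p = 0.495).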

How the results depend on the processing

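Of 960 tested values of the 6 genes under the alternatives, 930 kept their direction and their side of the threshold. Leaving out a library of a group not compared could not change a log2 difference, only its spread. Such alternatives are in the count and raise it. The sign of Rbms1 at KO day 4 against KO day 2 turned with median-centring (0.042), the same total (0.050), edgeR (0.023), DESeq2 (0.019), and without KO day 2 replicate 3 or KO day 4 replicate 3 (-0.026 to 0.013 over all single libraries left out). It turned at KO day 6 against KO day 4 with median-centring (0.032). Elavl1 in hypomorph cells, day 6 against day 4, turned with the same total (-0.11). The interaction of Rbms2 turned with median-centring, edgeR and DESeq2 (each -0.033) and the same total (-0.17). Rbms2 in hypomorph against KO at day 6 also missed the threshold with the compared groups alone, edgeR (log2 0.14) and DESeq2 (0.12). Qk's interaction also missed it with median-centring (0.26) and without KO day 6 replicate 1 (0.28). Causes were not tested.

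Counts among the 6 genes moved as follows. At KO day 4 against KO day 2, 1 gene instead of 0 was called higher with median-centring or the same total. At KO day 2 against day 0, 1 to 2 instead of 1 were higher without overlap with single libraries left out. At KO day 6 it was 2 instead of 1 with the same total, median-centring, edgeR or DESeq2 (1 to 2 with single libraries left out). Without the libraries with Alb above 100 only 1 day 0 library remained, so overlap is not counted there.

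Without the libraries with Alb above 100, each comparison below kept only 1 library in at least 1 group. Of the other 3' UTR-binding genes, 13 were higher and 8 lower at KO day 2 against day 0. It was 5 higher with a depth term, 4 higher and 3 lower without the libraries with Alb above 100, and 7 to 16 higher with single libraries left out, 7 without day 0 replicate 1 and 8 without KO day 2 replicate 1 or 3. At hypomorph day 4 against day 0, 9 were higher and 17 lower, 5 and 10 without the libraries with Alb above 100, and 4 to 9 higher with single libraries left out, 4 without day 0 replicate 1 and 5 without hypomorph day 4 replicate 3. At KO day 4 against day 0 it was 8 higher without the libraries with Alb above 100. In hypomorph against KO at day 4 it was 7 higher and 3 lower without those libraries and 13 lower with DESeq2, and at day 6 it was 17 higher with the same total. Of the deadenylation genes, 1 instead of 3 was higher at KO day 6 without the libraries with Alb above 100, 2 instead of 5 at hypomorph day 6 with the same total, and in hypomorph against KO at day 6 it was 3 higher and 10 lower with the same total and 1 lower without the libraries with Alb above 100.

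On average, same-numbered libraries did not deviate together (mean correlation of deviations -0.05 over 45 same-numbered pairs and 0.02 over 90 others). Deviations were taken from the mean of each group, which ties these averages to each other, so the second is no separate reference. Single pairs ranged from -0.81 to 0.71 and from -0.75 to 0.78, so some libraries of different groups did deviate together or apart. The pair at 0.78 was KO day 4 replicate 2 and KO day 6 replicate 3, with Alb at 9.53 and 17.2 scaled CPM, each the lowest of its group. The pair at -0.81 was KO day 2 replicate 2 and KO day 4 replicate 2, with Alb at 331 and 9.53. The part of Alb or of depth in these deviations was not tested. With the replicate block Rbms2 passed in hypomorph against KO at day 4 (0.17, limma adjusted p = 0.0464), and 3 genes instead of 2 were called higher there; no other value of the 6 genes changed its call. Among all genes, the same total gave 985 higher and 1373 lower at KO day 2 against day 0 instead of 1442 and 900, and edgeR gave 1145 and 1313. The same total gave 3445 and 5078 at hypomorph day 6 against day 0 instead of 4437 and 3861, with a median log2 of -0.15 instead of 0.03. Median-centring gave 1622 higher and 1868 lower in hypomorph against KO at day 4 instead of 1711 and 1315, and a median of 0.11 instead of -0.03 at KO day 6 against day 0. Depth limits Rbms3 most, with as few as 48 reads in a library.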

Other observations

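Genes of the CCR4-NOT complex and other deadenylation genes, which shorten the poly(A) tail and act with many 3' UTR-binding proteins, moved in both directions in hypomorph cells at day 6 against day 0. This list too was chosen with earlier results of these data known, so its counts and shares are a description. Of 18 tested genes of a list of 20, 5 were higher, 11 lower and 2 did not pass, so 88.9% differed, compared with 67.2% of all tested genes (median log2 -0.29, compared with 0.03 for all tested genes). With libraries scaled to the same total 2 were higher. Cnot6, which encodes a deadenylase, averaged 85.5 ± 3.47 scaled CPM in hypomorph day 6 cells and 216 ± 11.3 at day 0 (SD, n = 3 each), a log2 difference of -1.33 (limma adjusted p = 2.40e-15). Cnot1, which encodes the scaffold of the complex, was at -0.53 (limma adjusted p = 6.82e-07). Btg2, which encodes an antiproliferative partner of the complex, averaged 209 ± 15.3 in hypomorph day 6 cells and 125 ± 4.79 at day 0 (limma adjusted p = 4.86e-09).

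At KO day 6 against day 0, 3 of the 18 were higher, 7 lower and 8 did not pass (55.6% differed, compared with 71.1% of all tested genes), and 1 was higher without the libraries with Alb over 100. Cnot6 (log2 -1.07), Cnot10 (-0.85) and Cnot9 (-0.82) were lower, and Cnot8 (0.45) was higher. Between the states at day 6, 6 were higher in hypomorph cells, 5 lower and 7 did not pass, so 61.1% differed, where 37.7% of all tested genes were higher and 27.0% lower. The split turned to 3 higher and 10 lower with libraries scaled to the same total, and 1 was lower without the libraries with Alb over 100. Btg2 (0.74), Parn (0.78) and Cnot10 (0.58) led the higher ones.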
